A study of Homo sapiens with 4 samples.

Results

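Spliceosomal small nuclear RNAs (snRNAs) are short noncoding RNAs of the nucleus that form the catalytic and splice-site-reading core of the spliceosome. The 10 genes described here, RNU1-1, RNU2-2P, RNU4-1, RNU4-2, RNU5A-1, RNU5B-1, RNU11, RNU12, RNU4ATAC and RNU6ATAC, were taken by name as single annotated copies, out of 52001 genes with a symbol in the deposited tables. The RNA came from WI-38, a cell line of fibroblasts from human fetal lung, whose cells divide a limited number of times in culture before they become senescent. The 4 groups, each of 1 library, were mitoplasts of senescent cells at population doubling level 60, mitoplasts of young cells at level 21, whole senescent cells at level 60 and whole young cells at level 21. Mitoplasts are mitochondria without their outer membrane, here made from a detergent lysate cleared of nuclei by centrifugation and digested with RNase A before and after pelleting, per the labels' protocols. The crossed design asks how RNA levels differ with replicative age and which RNAs accompany the mitochondrial interior.

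Each snRNA is packed with proteins into a small nuclear ribonucleoprotein. Most carry a uridine-rich site on which the ring of Sm proteins is built in the cytoplasm before the particle returns to the nucleus, while U6 and U6atac are made by RNA polymerase III and bind LSm proteins in place of Sm proteins. U1 recognises the 5′ splice site of the major intron class, U2 pairs with the branch point, U4 holds U6 inactive until the spliceosome is activated, and U5 aligns the exons. A rare class of introns is removed by the minor spliceosome, in which U11 and U12 take the places of U1 and U2, U4atac and U6atac take those of U4 and U6, and U5 is shared.

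No group had a replicate, so no value below has a replicate error and no test between groups was possible; differences between libraries and between conditions cannot be told apart. The deposited unit is FPKM, the number of sequenced fragments divided by transcript length and by the mapped total, and the files hold no counts, so depth is unknown. Each ratio is log2((A + 1)/(B + 1)), with A and B in FPKM; the added 1 understates differences between low values. Ratios were computed for genes at 5 FPKM or more in at least 1 of the 2 libraries. A gene was counted as higher or lower past a log2 ratio of 1. The median gene itself was lower in each comparison, with a log2 ratio of -0.21 for senescent against young whole cells, -1.13 for senescent against young mitoplasts, -0.65 for mitoplasts against whole cells in young cells and -1.82 in senescent cells. The summed level of 10 fibroblast markers was 925 FPKM in senescent mitoplasts, 5435 FPKM in young mitoplasts, 3703 FPKM in senescent whole cells and 7119 FPKM in young whole cells, and all 10 were above 5 FPKM in both whole cell libraries. VIM alone held 4312 FPKM of the sum in young mitoplasts. It was listed at 0 in senescent mitoplasts, as was S100A4, against 1144 FPKM of VIM in senescent whole cells. Endothelial markers summed to 23.3 FPKM in senescent mitoplasts, nearly all VWF. They summed to 0.835, 0.190 and 0.0715 FPKM in young mitoplasts, senescent whole cells and young whole cells. CDH5 was at 0 in every library, and PECAM1 of the same list had no value in any. Blood cell markers summed to 13.4 FPKM in young mitoplasts, nearly all PTPRC, and to under 1 FPKM elsewhere. Epithelial markers summed to between 23.5 and 28.2 FPKM. The part of these markers in the results was not tested. Transcripts of 5 mitochondrial genes summed to 66211 FPKM in senescent mitoplasts and 106196 FPKM in young mitoplasts, against 27848 FPKM in senescent whole cells and 23085 FPKM in young whole cells. In each senescent library 3 of the 5 were listed at 0. MT-CYB and MT-RNR2, above 0 in both mitoplast libraries, had 29903 and 36308 FPKM in senescent mitoplasts. In young mitoplasts these 2 had less, 16952 and 25273 FPKM. An exact 0 may be a failed estimate: MT-CO1, a mitochondrial mRNA that respiring cells express, was listed at 0 in senescent mitoplasts and senescent whole cells, against 34115 FPKM in young mitoplasts and 8540 FPKM in young whole cells. A value of 0 is therefore given as listed at 0, with no fold against it. For RNAs of 116 to 191 nt, which are short beside a sequencing fragment, FPKM depends on the length correction, and the authors' correction is not stated in the labels or headers. Nor is any selection of RNA by poly(A) tail or rRNA removal, so how fully these RNAs were captured in each library is unknown.

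The sequences of 4 of the snRNAs are shown because the results turn on them: U11, the snRNA with the highest mitoplast level, beside U12, its partner in the same particle, and the U4 pair, of near-identical copies whose balance differed between libraries. They are RNA-sense sequences written with T from GENCODE release 29, and the capitals mark the Sm-type site, searched on the sense strand as ATTTNTG or ATTTTTTG.
RNU11: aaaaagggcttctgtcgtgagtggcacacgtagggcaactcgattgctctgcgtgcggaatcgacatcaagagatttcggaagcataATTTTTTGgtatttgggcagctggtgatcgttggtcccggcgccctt
RNU12: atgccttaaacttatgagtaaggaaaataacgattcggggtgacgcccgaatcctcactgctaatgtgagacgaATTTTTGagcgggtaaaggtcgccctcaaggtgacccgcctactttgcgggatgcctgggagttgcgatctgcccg
RNU4-1: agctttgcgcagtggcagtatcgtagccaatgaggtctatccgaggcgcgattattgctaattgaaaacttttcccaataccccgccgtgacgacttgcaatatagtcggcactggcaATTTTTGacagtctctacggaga
RNU4-2: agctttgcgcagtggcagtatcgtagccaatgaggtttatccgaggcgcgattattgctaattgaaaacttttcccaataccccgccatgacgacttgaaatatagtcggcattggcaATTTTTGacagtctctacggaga

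RNU11 is 134 nt long and lies on chromosome 1, and RNU12 is 150 nt long and lies on chromosome 22. At 45.3% identity over their aligned length, the RNAs of the U11 and U12 pair are far easier to tell apart by sequence than the copies of U4. RNU4-1 and RNU4-2 are both 141 nt long, lie on chromosome 12 and are 97.2% identical. Counted from 1 at the 5′ end, with the RNU4-1 base first, they differ at C37T, G88A, C99A and C113T. All 4 differences lie outside the Sm-type site. Reads that cover none of these positions fit both copies, so the split of FPKM within the pair is uncertain. RNU5A-1 and RNU5B-1 are both 116 nt long and lie on chromosome 15, and as near-identical copies they share reads, so the split of FPKM between them is uncertain too.

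The other 4 were RNU1-1 on chromosome 1, RNU2-2P on chromosome 11, RNU4ATAC on chromosome 2 and RNU6ATAC on chromosome 9. An Sm-type site of either spelling was found in 9 of the 10 snRNAs, the exception being RNU6ATAC. The same letters occur in 12.1% of 5574 annotated transcripts of 100 to 200 nt and in 32.5% of the 1576 snRNA-type transcripts among them, pseudogenes included. The match is a description of these letters and no more. The spelling was shortened after the sequences had been seen.

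The plot of levels by library shows the main pattern: 9 of the 10 snRNAs had values between 338 and 21630 FPKM in whole cells, and most were low or listed at 0 in mitoplasts, with RNU11 the exception.

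**Figure D1:**
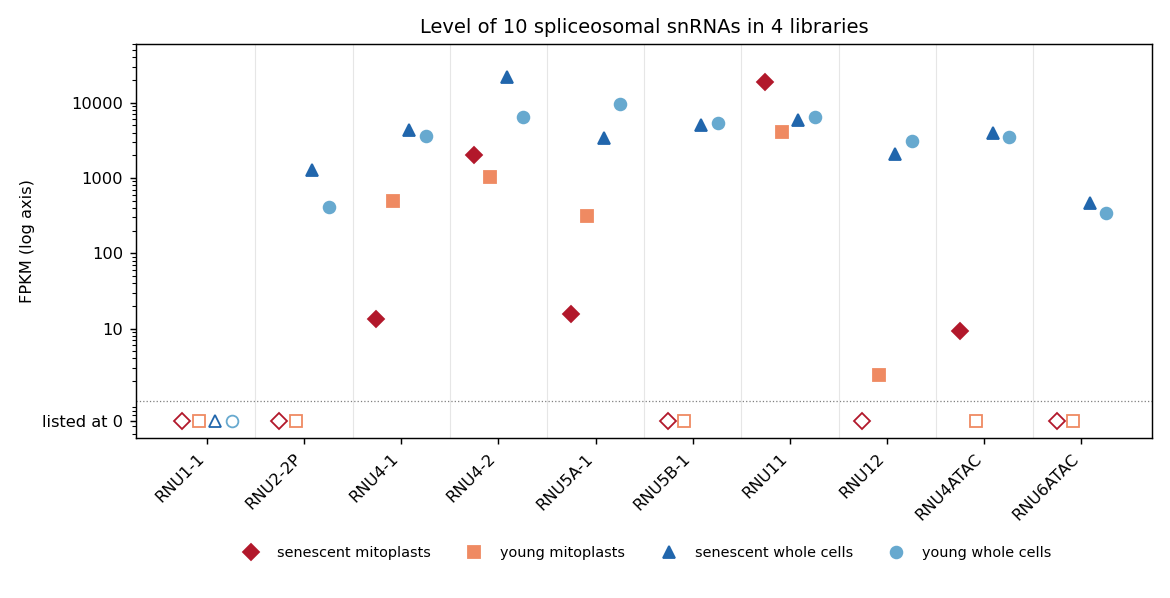
Level of each of the 10 snRNAs in FPKM (log axis), 1 point a library: senescent mitoplasts (diamonds), young mitoplasts (squares), senescent whole cells (triangles) and young whole cells (circles), with open symbols below the dotted line for values listed at 0. RNU11 is the only member whose highest value, 18698 FPKM, is in a mitoplast library, and RNU1-1 is listed at 0 in all 4. The RNU12 row carries another transcript, Z93241.1, in both mitoplast libraries.

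RNU1-1, a copy of the U1 RNA that reads the 5′ splice site, was listed at 0 in all 4 libraries. The annotation holds 7 other transcripts with an identical sequence, so reads of U1 cannot be assigned to 1 gene by sequence, and no level of U1 can be read from this row. The 21 genes named as U1 genes were all listed at 0 in both mitoplast libraries and together held 64.0 FPKM in senescent whole cells and 54.4 FPKM in young whole cells. The 3 U6 genes were listed at 0 in all 4 libraries, and so was RNU7-1, the U7 RNA of histone mRNA processing. These zeros leave U1 and U6 undescribed at the depth and counting of these files.

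RNU2-2P, a U2 gene whose symbol carries a pseudogene suffix, was listed at 0 in both mitoplast libraries, at 1289 FPKM in senescent whole cells and at 409 FPKM in young whole cells. The senescent whole cell value was 3.15-fold higher, a log2 ratio of 1.65. The nearest other annotated snRNA sequence is 96.3% identical to RNU2-2P, so reads may be shared between them. The locus of this row holds 15 other transcript rows in every library, whose reads were shared out by the authors' processing. RNU2-59P, a U2 pseudogene, went the other way in whole cells, with 255 FPKM in senescent cells and 596 FPKM in young cells.

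The U4 copies differed from each other. RNU4-2 had 2003 FPKM in senescent mitoplasts, 1014 FPKM in young mitoplasts, 21630 FPKM in senescent whole cells and 6360 FPKM in young whole cells. RNU4-1 had 13.4 FPKM in senescent mitoplasts, 491 FPKM in young mitoplasts, 4279 FPKM in senescent whole cells and 3616 FPKM in young whole cells. RNU4-2 was thus the higher copy in every library, and both copies were higher in whole cells than in mitoplasts at each age.

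With senescence, RNU4-2 was 3.40-fold higher in whole cells, a log2 ratio of 1.77, and 1.98-fold higher in mitoplasts, a log2 ratio of 0.98. Set against the median gene of each comparison, these log2 ratios were 1.98 higher in whole cells and 2.11 higher in mitoplasts. RNU4-1 had a log2 ratio of 0.24 in whole cells, which became -0.48 when each library was scaled to an equal sum over all transcripts, and was 36.6-fold lower in senescent mitoplasts, a log2 ratio of -5.09. RNU4-2 made up 99.3% of the summed FPKM of the pair in senescent mitoplasts and 67.4% in young mitoplasts. In whole cells it made up 83.5% of the pair in senescent cells and 63.8% in young cells. These shares do not depend on how the libraries are scaled, but they rest on the 4 positions at which the copies differ. The 2 copies share a locus with each other in both whole cell libraries and are in separate loci in both mitoplast libraries.

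U5, which serves both spliceosomes, was measured as RNU5A-1 and RNU5B-1. RNU5A-1 had 15.8 FPKM in senescent mitoplasts, 307 FPKM in young mitoplasts, 3395 FPKM in senescent whole cells and 9467 FPKM in young whole cells. RNU5B-1 was listed at 0 in both mitoplast libraries and had 5083 FPKM in senescent whole cells and 5334 FPKM in young whole cells. Only the first copy differed with age in whole cells past the counted size.

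RNU5A-1 was 2.79-fold lower in senescent than in young whole cells, a log2 ratio of -1.48, whereas RNU5B-1 had a log2 ratio of -0.07, which was 0.51 with an equal sum over coding genes and -0.80 with one over all transcripts. RNU5A-1 therefore made up 40.0% of the pair in senescent whole cells and 64.0% in young whole cells, and the higher copy was RNU5B-1 in senescent cells and RNU5A-1 in young cells. In mitoplasts RNU5A-1 was 19.5-fold lower in senescent than in young cells, a log2 ratio of -4.20. The row of RNU5A-1 carries the identifier of an assembled transcript in both whole cell libraries and its own Ensembl identifier in both mitoplast libraries, so its comparison between fractions sets a differently defined transcript against the annotated one. When each library was scaled to an equal sum over coding genes, its whole cell log2 ratio was -0.90 and did not reach the counted size. RNU5E-1, another U5 gene outside the 10, was listed at 0 in both mitoplast libraries and had 169 FPKM in senescent whole cells and 696 FPKM in young whole cells.

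**Figure D2:**
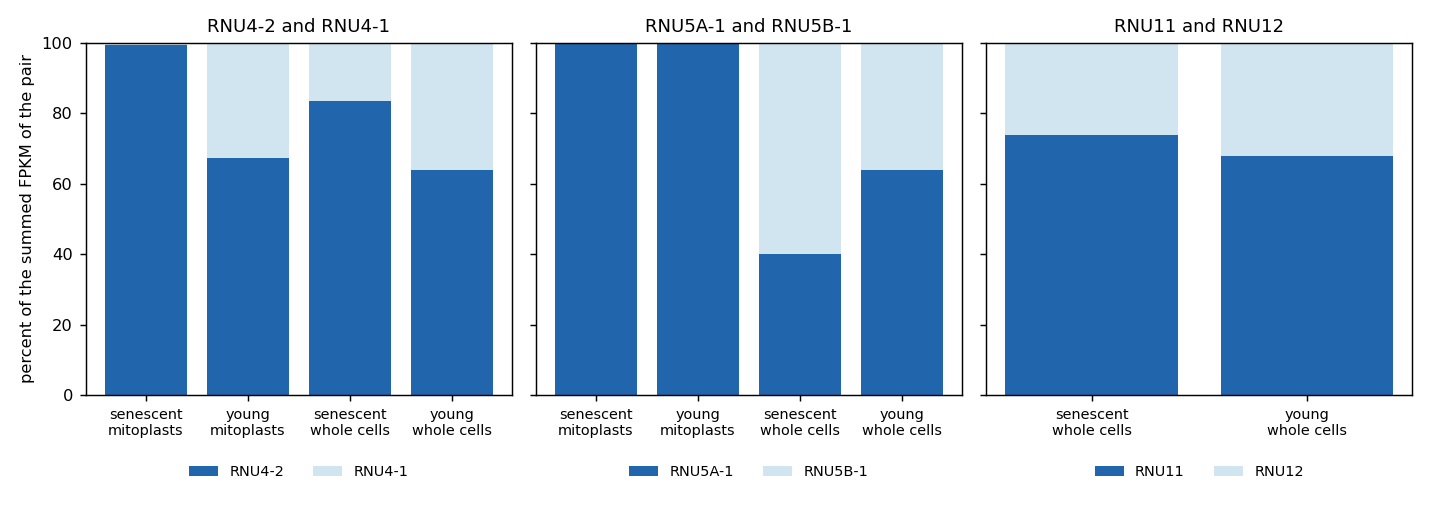
Share of the summed FPKM of 3 snRNA pairs held by each member (percent), by library, with the first-named RNA in dark blue and the second in pale blue. RNU4-2 held 99.3% of its pair in senescent mitoplasts and 67.4% in young mitoplasts. RNU5A-1 held 40.0% in senescent whole cells, against 64.0% in young ones, where its row carries an assembled transcript in both. In mitoplasts its share is 100% because RNU5B-1 was listed at 0. RNU11 held 73.9% in senescent whole cells, against 67.8% in young ones, and its pair is drawn for whole cells alone because the RNU12 row carries another transcript in mitoplasts.

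Of the minor spliceosome, RNU11 encodes the RNA that reads the 5′ splice site of the rare intron class. RNU11 had 18698 FPKM in senescent mitoplasts, 4047 FPKM in young mitoplasts, 5812 FPKM in senescent whole cells and 6479 FPKM in young whole cells. Its levels in the whole cell libraries and in young mitoplasts were close to each other beside the level in senescent mitoplasts, which stood apart. Among annotated transcript rows ranked by FPKM, RNU11 was ninth in senescent mitoplasts, 33rd in young mitoplasts and 17th in both whole cell libraries. These ranks come from unlike libraries. Annotated rows above 0 numbered 13098 in senescent mitoplasts, 23883 in young mitoplasts, 32365 in senescent whole cells and 33402 in young whole cells. Transcripts without an Ensembl identifier held 97.3% of all FPKM in senescent mitoplasts and 92.7% in young mitoplasts. In whole cells they held 76.2% in senescent and 53.7% in young cells. RNU11 made up 90.2% of the members' summed FPKM in senescent mitoplasts, 69.0% in young mitoplasts, 12.1% in senescent whole cells and 16.8% in young whole cells.

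RNU11 was 3.22-fold higher in mitoplasts than in whole cells of senescent cells, a log2 ratio of 1.69, and 1.60-fold lower in mitoplasts of young cells, a log2 ratio of -0.68. When each library was scaled to an equal sum over all transcripts, assembled ones included, the senescent ratio turned to -1.02 and the young ratio was -3.99. Relative to the median gene the deposited ratios were 3.51 in senescent cells and -0.03 in young cells. A total of 84.7% of all genes compared in senescent cells had a lower ratio than RNU11, against 49.4% in young cells. Among other short noncoding RNAs these shares were 95.1% in senescent cells and 84.5% in young cells. Between ages, RNU11 was 4.62-fold higher in senescent than in young mitoplasts, a log2 ratio of 2.21, with a log2 ratio of -0.16 in whole cells. The whole cell value had the other sign, 0.42, with libraries scaled to an equal sum over coding genes, and 0.03 with median-of-ratios scaling.

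RNU12 encodes the branch point RNA that joins U11 in 1 particle. RNU12 had 2050 FPKM in senescent whole cells and 3081 FPKM in young whole cells, a log2 ratio of -0.59, which was -0.01 with an equal sum over coding genes. Its row was listed at 0 in senescent mitoplasts and had 2.45 FPKM in young mitoplasts. In both mitoplast libraries that row carries another identifier, that of Z93241.1, a noncoding transcript of 664 nt that begins with the RNU12 sequence, so no mitoplast value stands under the identifier of RNU12 itself and its level there cannot be set beside that of RNU11. The mitoplast values of this row in the counts below are those of that transcript. RNU11 made up 73.9% of the summed FPKM of both in senescent whole cells and 67.8% in young whole cells.

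RNU4ATAC, the partner that holds U6atac inactive, had 9.38 FPKM in senescent mitoplasts, was listed at 0 in young mitoplasts and had 3984 FPKM in senescent whole cells and 3541 FPKM in young whole cells. Its whole cell log2 ratio was 0.17, and -0.56 with an equal sum over all transcripts. RNU6ATAC, which takes the catalytic place of U6 in the minor spliceosome, was listed at 0 in both mitoplast libraries and had 459 FPKM in senescent whole cells and 338 FPKM in young whole cells, a log2 ratio of 0.44 that became -0.29 under the same scaling and 1.02, past the counted size, with an equal sum over coding genes. RNU4ATAC made up 89.7% of the summed FPKM of the 2 RNAs in senescent whole cells and 91.3% in young whole cells. A U6atac pseudogene, RNU6ATAC2P, is 99.2% identical to RNU6ATAC, so its reads may be shared.

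In senescent whole cells 2 of the 9 snRNAs compared, RNU2-2P and RNU4-2, were higher past a log2 ratio of 1, and 1, RNU5A-1, was lower. Over all 10074 genes compared, 15.7% were higher and 22.3% lower, and over 281 other short noncoding RNA genes 39.9% were higher and 34.5% lower. The other 6 snRNAs lay between, and the median log2 ratio of the 9 was 0.17, beside 0.24 for the other short noncoding RNAs. With an equal sum over all transcripts the median was -0.56, with 1 higher, RNU4-2, and 2 lower, RNU5A-1 and RNU12. With an equal sum over coding genes 3 were higher, RNU6ATAC among them, and 0 lower. In bulk RNA, fewer cells that hold an RNA and less of it per cell cannot be told apart.

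In senescent against young mitoplasts 5 snRNAs could be compared. RNU11 and RNU4ATAC were higher and RNU4-1 and RNU5A-1 lower past a log2 ratio of 1, where 24.9% of 9029 genes were higher and 52% lower. Of 49 other short noncoding RNA genes, 24.5% were higher and 51% lower. RNU4ATAC counts as higher because it was listed at 0 in young mitoplasts. The median was 0.98 over the 5 and -1.61 over the 4 above 0 in both libraries, so its sign rests on that 1 member.

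**Figure D3:**
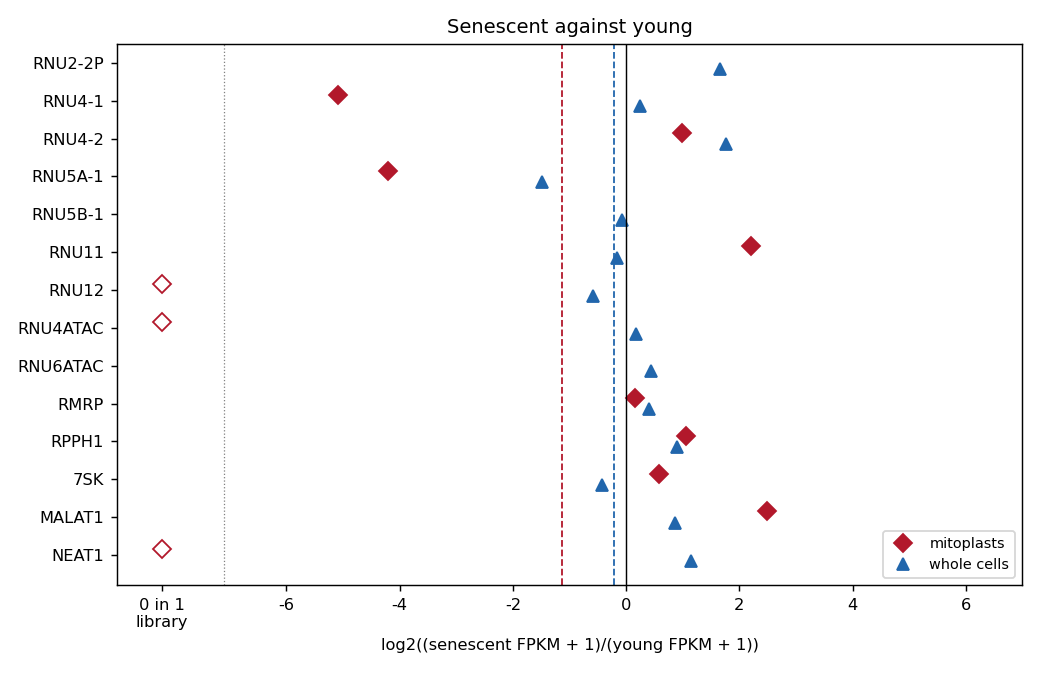
Log2 ratio of senescent over young FPKM + 1 for the snRNAs and for RMRP, RPPH1, 7SK, MALAT1 and NEAT1, in mitoplasts (diamonds) and whole cells (triangles). Dashed lines mark the median gene of each fraction, and open symbols on the left mark RNAs listed at 0 in 1 mitoplast library. They are placed there whichever library was 0, so their side gives no direction. RNU4ATAC was listed at 0 in young mitoplasts, and NEAT1 and the RNU12 row in senescent mitoplasts. The RNU12 mitoplast symbol is that of transcript Z93241.1. RNU11 lies at 2.21 in mitoplasts, against -0.16 in whole cells, and RNU4-1 at -5.09 in mitoplasts, against 0.24 in whole cells.

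Between fractions, 8 of 9 snRNAs were lower in mitoplasts than in whole cells at each age past a log2 ratio of 1. In young cells none was higher, and in senescent cells RNU11 was. Without RNU5A-1 and RNU12, whose rows change identifier between fractions, 6 of 7 were lower at each age. All genes compared were lower in mitoplasts in 61.9% of 10095 cases in senescent cells and in 42.8% of 10188 cases in young cells, and higher in 18.9% of them in senescent cells and 16.2% in young cells. Other short noncoding RNA genes were lower in 91.7% of 206 cases in senescent cells and in 84.5% of 219 cases in young cells, shares close to those of the snRNAs, and were higher in 5.83% in senescent cells and 10.5% in young cells. Over the 5 snRNAs above 0 in both fractions the median log2 ratio was -7.66 in senescent cells and -2.88 in young cells, beside -1.20 in senescent cells and -0.56 in young cells over all genes above 0 in both.

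In senescent cells RNU4-1 was 319-fold lower in mitoplasts than in whole cells, RNU5A-1 215-fold, RNU4ATAC 425-fold and RNU4-2 10.8-fold. In young cells RNU4-1 was 7.36-fold lower, RNU5A-1 30.8-fold and RNU4-2 6.27-fold. The ratio of RNU4-2 thus changed least between ages among the 3, by -0.78 on the log2 scale in senescent minus young cells, and by 0.69 with an equal sum over coding genes. Set side by side, the same difference was -5.33 for RNU4-1, -2.72 for RNU5A-1 and 2.36 for RNU11.

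RNU2-2P, RNU5B-1 and RNU6ATAC were listed at 0 in both mitoplast libraries, the RNU12 row in senescent mitoplasts and RNU4ATAC in young mitoplasts. That is 4 of the 9 members above 100 FPKM in whole cells at each age. Of other short noncoding RNAs above 100 FPKM in whole cells, 70.9% of 55 were listed at 0 in senescent mitoplasts and 51.4% of 35 in young mitoplasts. For coding genes these shares were 5.60% of 947 in senescent mitoplasts and 3.49% of 1116 in young mitoplasts.

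**Figure D4:**
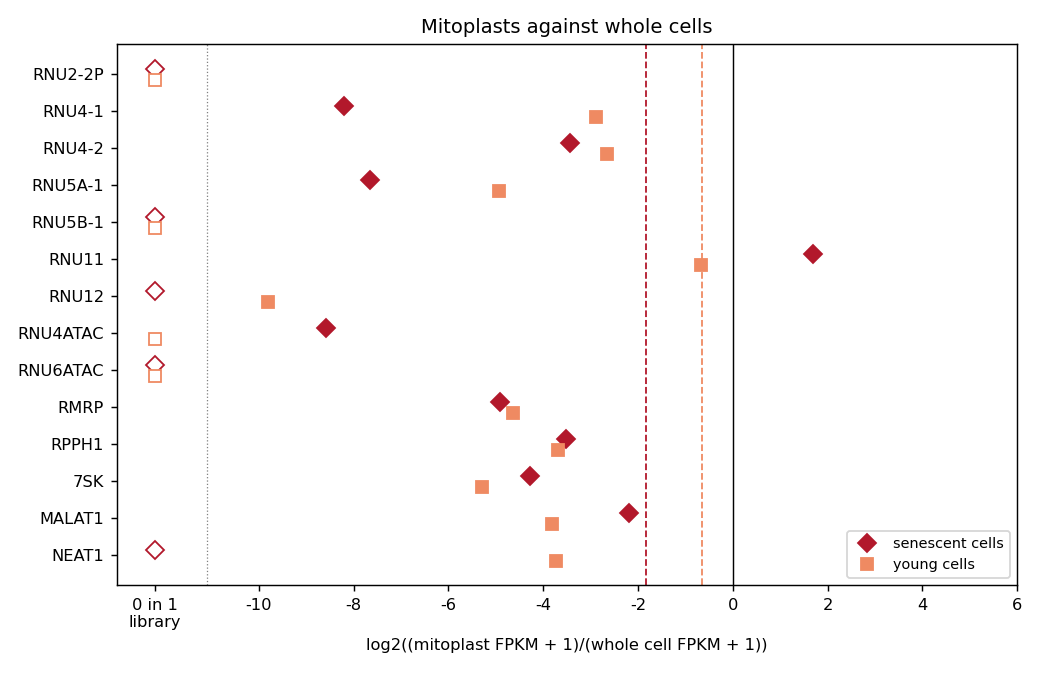
Log2 ratio of mitoplast over whole cell FPKM + 1 for the snRNAs and 5 other noncoding RNAs, in senescent cells (diamonds) and young cells (squares). Dashed lines mark the median gene at each age, and open symbols on the left mark RNAs listed at 0 in the mitoplast library. The RNU12 row sets transcript Z93241.1 in mitoplasts against RNU12 in whole cells. RNU11 lies at 1.69 in senescent cells and -0.68 in young cells, to the right of every other RNA drawn.

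Other noncoding RNAs of the nucleus or of RNA polymerase III served as comparison. RMRP, the RNA of RNase MRP, had mitoplast to whole cell log2 ratios of -4.91 in senescent cells and -4.64 in young cells. RPPH1, the RNA of RNase P, had -3.53 in senescent cells and -3.69 in young cells, and 7SK, which holds the elongation kinase P-TEFb inactive, had -4.28 in senescent cells and -5.29 in young cells. MALAT1, a long RNA of nuclear speckles, had -2.18 in senescent cells and -3.81 in young cells. NEAT1, the scaffold of paraspeckles, was listed at 0 in senescent mitoplasts and had a log2 ratio of -3.72 in young cells. Of these RNAs and the snRNAs, RNU11 was the only one with a ratio above 0 at either age, and under the equal sum over all transcripts it too was below 0. Some other short RNAs were also higher in mitoplasts. SNORA71D had 1188 FPKM in senescent mitoplasts and 220 FPKM in senescent whole cells. Its young values were 112 FPKM in mitoplasts and 50.6 FPKM in whole cells. Past a log2 ratio of 1 in young cells, 2 of 6 Y and vault RNA genes were higher and 3 lower. In senescent cells all 5 compared were lower. Most small nucleolar and Cajal body RNA genes were lower, 85 of 88 compared in senescent cells and 71 of 76 in young cells.

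Among all genes with a symbol and 100 FPKM or more in a library, 1545 were ranked by the distance of their log2(FPKM + 1) profile over the 4 libraries, centred on its mean, to the median profile of the snRNAs. The nearest were SNORA53 at a distance of 0.46, C1QTNF7-AS1 at 0.50, SNORA22C at 0.57, IGFBP4 at 0.61, SCARNA7 at 0.75 and SNORA47 at 0.89. SNORA53, SNORA22C and SNORA47 are small nucleolar RNAs, SCARNA7 is a Cajal body RNA, C1QTNF7-AS1 is an antisense RNA and IGFBP4 encodes a binding protein of insulin-like growth factors. The likeness rests on 4 values each, and 5 of the 6 were listed at 0 in both mitoplast libraries. Of the snRNAs themselves RNU6ATAC was nearest the median profile, at 0.47, and RNU11 farthest, at 9.47.

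Other genes of snRNA type added little. The 10 snRNAs held 97.1% of the FPKM of all snRNA-type genes in senescent whole cells and 92.3% in young whole cells. Of 1781 others, 33 were at 5 FPKM or more in senescent whole cells and 50 in young whole cells, and 1 in each mitoplast library. RNU5E-6P, a U5 pseudogene, was among the highest, with 223 FPKM in senescent whole cells and 849 FPKM in young whole cells.

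The genes of proteins that bind snRNAs, or that make, process and carry them, were described by RNA level over 8 lists holding 114 genes. In senescent whole cells 32 of the 90 genes compared were lower than in young whole cells past a log2 ratio of 1 and 2 were higher, with a median log2 ratio of -0.70, where 22.3% of all genes were lower and 15.7% higher. The median was -1.41 with an equal sum over all transcripts. An equal sum over coding genes instead raises each log2 ratio of this comparison by about 0.58, and by less at low values. Fewer genes are then lower past the counted size. A gene's value sums all its transcripts, and in 66 of the 90 most of it lay in protein-coding transcripts, and in the others in retained-intron, decay-prone, processed or unannotated ones. The snRNA median was 0.17 as deposited and -0.56 with an equal sum over all transcripts. The difference between the medians has no test here.

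All 6 genes of U1 particle proteins had lower RNA levels in senescent whole cells past a log2 ratio of 1, where 22.3% of all genes did. Their median log2 ratio was -1.23. With an equal sum over coding genes each of these ratios is about 0.58 higher, and none of the 6 then reaches the counted size. SNRNP70, the U1-70K protein, had 62.7 FPKM in senescent whole cells, against 161 FPKM in young ones. SNRPA, the U1-A protein, had 40.8 FPKM in senescent whole cells, against 112 FPKM in young ones. SNRPC, the U1-C protein, had 38.8 FPKM in senescent and 83.6 FPKM in young whole cells. The LUC7-like proteins LUC7L, LUC7L2 and LUC7L3, which help choose 5′ splice sites, had log2 ratios of -1.44, -1.11 and -1.04. Of LUC7L2, 86.8% of the value in senescent whole cells and 53.5% in young whole cells lay in a retained-intron transcript of 570 nt.

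Of 8 Sm core genes, which encode the ring on the site marked above, 5 were lower and 1 higher, with a median of -1.23. Over all genes compared, 22.3% were lower and 15.7% higher. SNRPD1 had 72.0 FPKM in senescent whole cells, against 260 FPKM in young ones. SNRPB had 17.6 FPKM in senescent whole cells, against 51.7 FPKM in young ones, and SNRPD2 had 82.3 FPKM in senescent whole cells, against 207 FPKM in young ones. SNRPD3 and SNRPF lay within the counted size, at -0.66 and -0.67. With an equal sum over coding genes, SNRPD1 alone of the lower ones stays past the counted size. The higher one was SNRPN, chosen for mention after its values were seen, with 93.6 FPKM in senescent whole cells and listed at 0 in young whole cells. Of 7 LSm genes, whose ring binds U6 and U6atac, 4 were lower and 0 higher, with a median of -1.14. LSM6 had a log2 ratio of -1.36, LSM2 of -1.35 and LSM8 of -1.31, and all of LSM6 in both libraries lay in a decay-prone transcript of 545 nt. No LSm gene stays lower past the counted size with an equal sum over coding genes.

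Of 14 U2 particle genes, 5 were lower and 0 higher (median -0.81), where 22.3% of all genes were lower and 15.7% higher. U2AF1 and U2AF2, the subunits that recognise the 3′ splice site before U2 binds, had 20.1 and 15.0 FPKM in senescent whole cells and 89.8 and 57.5 FPKM in young whole cells. PHF5A, a subunit of SF3B, had the highest ratio of the list, 0.65. Of 17 genes of the U4/U6 and U5 particles, 4 were lower and 0 higher (median -0.64), beside the same shares over all genes. PRPF31, which binds U4, had 6.39 FPKM in senescent and 26.9 FPKM in young whole cells, a log2 ratio of -1.92. SART1, a protein that joins the U4/U6 and U5 particles, had a log2 ratio of -1.60, and TXNL4A, a small U5 protein, of -1.39.

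The minor spliceosome list was closest to the median gene, with a median of -0.20. Of the 7 genes compared 1 was lower and 0 were higher, where 22.3% of all genes were lower and 15.7% higher. RNPC3, which bridges U11 and U12, had 27.6 FPKM in senescent and 17.8 FPKM in young whole cells, a log2 ratio of 0.60. ZRSR2, which reads the 3′ splice site of minor introns, had a log2 ratio of -0.06 and SCNM1 of 0.27. ARMC7 had the lowest, -2.23, with 1.12 FPKM in senescent and 8.93 FPKM in young whole cells. PDCD7 and ZCRB1, proteins of the U11/U12 particle, had -0.70 and -0.58.

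Of 20 genes of snRNA transcription and 3′ end processing, 5 were lower and 1 higher (median -0.58). Among all genes 22.3% were lower and 15.7% higher. ZNF143, an activator of snRNA promoters, had 9.69 FPKM in senescent and 59.1 FPKM in young whole cells, of which 90.6% in young cells was a coding transcript of 265 nt. SNAPC3, a subunit of the complex that binds those promoters, was the higher one, with 25.5 FPKM in senescent and 7.87 FPKM in young whole cells. All of its young value lay in a decay-prone transcript of 2574 nt. Of its senescent value, 67.1% lay in a coding transcript of 730 nt. INTS12, of the Integrator complex that cuts snRNA precursors, had a log2 ratio of -1.37, and INTS13 and INTS6 had 0.09 and 0.04. Of 11 genes of export, Sm ring assembly and import, 2 were lower and 0 higher (median -0.47), beside the same shares over all genes. PRMT5, the methyltransferase that modifies Sm proteins before assembly, had a log2 ratio of -1.27 and GEMIN2, of the SMN complex, of -1.10. PHAX and XPO1, which carry snRNA precursors out of the nucleus, had 0.21 and 0.19.

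**Figure D5:**
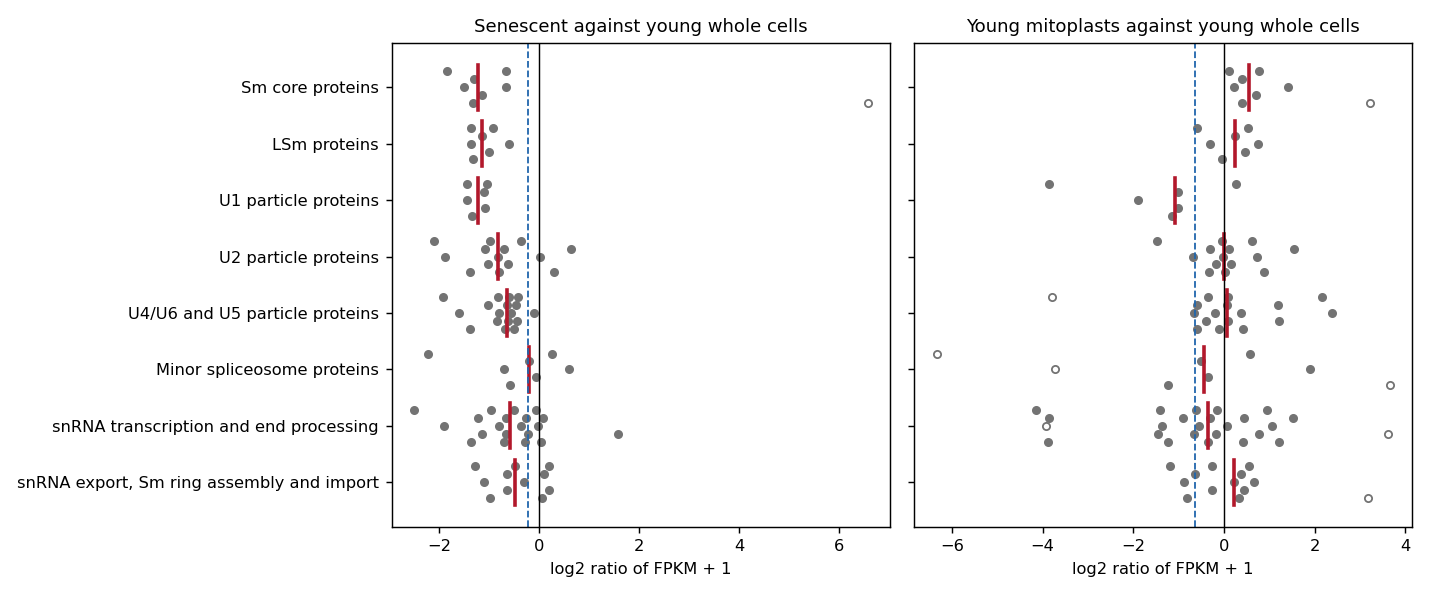
Log2 ratios of FPKM + 1 for the genes of 8 lists of snRNA-associated proteins, senescent against young whole cells (left) and young mitoplasts against young whole cells (right). Each point is a gene, open where it was listed at 0 in 1 library, the red bar is the list's median and the dashed line the median of all genes compared. On the left the list medians run from -1.23 to -0.20.

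The mRNAs of these proteins did not share the low mitoplast levels of most snRNAs in young cells. Of 98 genes compared between young mitoplasts and young whole cells, 14 were higher and 19 lower, where 16.2% of all genes were higher and 42.8% lower, with a median log2 ratio of -0.03 that was -3.15 with an equal sum over all transcripts. The Sm core list had a median of 0.55, with SNRPF at 65.0 FPKM in young mitoplasts and 23.7 FPKM in young whole cells. TXNL4A had 272 FPKM in young mitoplasts and 59.8 FPKM in young whole cells, and USP39, of the U4/U6.U5 particle, had 41.5 FPKM in young mitoplasts and 7.12 FPKM in young whole cells. The USP39 value lay wholly in assembled transcripts in young whole cells and in annotated ones in young mitoplasts, so different transcripts are compared. In 71 of the 98 genes most of the value lay in protein-coding transcripts. The U1 list had a median of -1.08, with 5 of 6 genes lower. LUC7L2 was the lowest of them, at 7.96 FPKM in young mitoplasts and 129 FPKM in young whole cells.

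In senescent cells the mitoplast to whole cell median of the protein genes was -1.28 over 84 genes, with 9 higher and 45 lower, where 18.9% of all genes were higher and 61.9% lower. With median-of-ratios scaling this median was 0.33, so its direction depends on the scaling. Of the 84, 23 were listed at 0 in senescent mitoplasts, and over the 61 above 0 in both libraries the median was -0.72. Between mitoplast libraries the median of 85 protein genes was -1.84 in senescent against young, with 3 higher and 64 lower, where 24.9% of all genes were higher and 52% lower. It was 0.35 with an equal sum over coding genes.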

How the data were processed

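RNA of 4 WI-38 libraries was analysed: senescent and young mitoplasts and senescent and young whole cells, 1 library each. Libraries were made with a TruSeq RNA v2 kit, per the labels' protocols. Their strand setting and any selection of RNA by poly(A) tail or rRNA removal are not stated in these. The authors deposited FPKM per transcript of a merged set of 393483 rows, per the file headers, of which 185591 carry an Ensembl identifier. Cuffdiff, Cufflinks 2.2.1, TopHat2 2.0.14 and hg19 are the tools and build named in the submitters' processing notes. GENCODE release 29, of another build, gave names, types, lengths, sequences and chromosomes, and matched 93.0% of annotated rows; no coordinates were used. Some sequences are not reported here.

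An snRNA's value is its transcript row, joined across libraries by row identifier. A protein gene's value sums its annotated transcripts and those assembled transcripts whose locus contains no other gene. Ratios used a pseudocount of 1 FPKM, a minimum of 5 FPKM in 1 of the 2 libraries and a counted log2 ratio of 1. No counts were available, so neither depth nor counting error is known; 1 library a group allows no test. Alternatives were a pseudocount of 0.1, a minimum of 1 FPKM or none, 3 rescalings, another transcript set and, added after seeing the data, snRNAs above 0 in both libraries, snRNAs under their own identifier and coding transcripts alone.

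All 10 snRNAs are named; from each protein list up to 3 genes with the highest and 3 with the lowest ratio, above 0 in both libraries, could be named; 6 genes of most similar profile and 6 comparison RNAs were fixed by rule. The members and lists were chosen with earlier results of these data known. Python 3.11.15, pandas 2.3.3, numpy 2.4.6, edlib 1.3.9.post1 and matplotlib 3.10.9 were used, and the ratio code was tested on simulated data.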

Additional observations from a re-analysis of the deposited data

Results flagged for a closer look

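Of the snRNAs, 2 had ratios of opposite sign in the groups compared, each with 1 library a side, and the difference was not tested. RNU4-1 had a senescent over young log2 ratio of -5.09 in mitoplasts and 0.24 in whole cells, a difference of -5.33. The whole cell value is near 0 and turns negative with an equal sum over all transcripts. RNU11 had a senescent over young log2 ratio of 2.21 in mitoplasts and -0.16 in whole cells, a difference of 2.36. The same 4 values give its mitoplast over whole cell log2 ratio of 1.69 in senescent cells and -0.68 in young cells, with the same difference of 2.36, so these are a single pattern seen from both sides. Across 3 rescalings the difference for RNU11 lay between 2.98 and 3.84, and that for RNU4-1 between -4.64 and -3.92.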

How the results depend on the processing

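Medians and counts that changed by over 1.5 times, and medians that crossed a log2 ratio of 1, are given here, with every ratio past 1 that changed sign. Another 83 ratios or differences of single snRNAs moved that far and are not all listed. No paired analysis was possible because each group holds 1 library. On the log2 scale the 3 rescalings shift ratios between high values of a comparison nearly alike. For senescent against young whole cells the shift is -0.73 to 0.58, and for mitoplasts between ages -0.11 to 2.05. For the fractions it is -3.31 to 0.55 in young cells and -2.70 to 1.33 in senescent cells. The 1 FPKM is added after scaling, so ratios with a value at or near 0 shift by other amounts. Shares within a pair are not touched by them.

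With a pseudocount of 0.1 FPKM the snRNA median for young mitoplasts against young whole cells was -10.24, against -8.40 with 1 FPKM, since members listed at 0 enter it. With a minimum of 1 FPKM, or none, the snRNA median for senescent against young mitoplasts was -0.40, against 0.98. With median-of-ratios scaling it was 1.95, the snRNA medians for mitoplasts against whole cells were -7.32 in senescent cells (as deposited -8.58) and -7.79 in young cells, and the protein medians were -0.93 for senescent against young mitoplasts and 0.33 for senescent mitoplasts against senescent whole cells.

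With an equal sum over all transcripts, senescent against young whole cells gave an snRNA median of -0.56, with 1 higher and 2 lower, and a protein median of -1.41. Mitoplasts against whole cells then gave snRNA medians of -10.83 in senescent cells, with 0 higher, and -10.95 in young cells, and protein medians of -3.48 in senescent cells and -3.15 in young cells. RNU11 turned to -1.02 in senescent mitoplasts against senescent whole cells. The median difference between ages of the fraction ratios, -0.78 as deposited, was 0.029, which is also the value of RNU12 there, as deposited -1.20.

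With an equal sum over coding genes, 0 snRNAs were lower and 3 higher in senescent whole cells, the snRNA medians were 3.03 for senescent against young mitoplasts and -7.67 for senescent mitoplasts against senescent whole cells, the protein medians were 0.35 and -0.34 in the same comparisons, and the median difference between ages was -1.02. Over members above 0 in both libraries, senescent against young mitoplasts gave -1.61 with 1 higher, mitoplasts against whole cells gave -7.66 with 4 lower in senescent cells and -2.88 with 4 lower in young cells, and the median difference was -1.75. Over members under their own identifier, 0 were lower in senescent whole cells, since RNU5A-1 leaves the comparison. Over coding transcripts alone the protein medians were -3.01 for senescent against young mitoplasts and -2.55 for senescent mitoplasts against senescent whole cells. Apart from the shifts that the scale factors set and the members or transcripts left out, the cause was not tested. The other 115 medians and counts, and 263 ratios of single snRNAs, did neither. Without replicates or counts, no small difference can be told from sampling.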
